A study of Mus musculus with 4 samples.

Results

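The interferon-stimulated CD8+ T cells (Tc) described here were 89 cells of the spleen, taken from mice that had received leukemia cells and an allogeneic transplant. They were chosen by their own RNA. A cell was counted if it had at least 500 genes, at least 1000 unique molecular identifiers (UMIs, 1 per captured RNA molecule) and at most 10% mitochondrial UMIs, had at least 1 UMI of Cd3d, Cd3e or Cd3g and of Cd8a or Cd8b1, and had none of Cd4 or Klf1. Of 15784 barcodes 11632 passed the filter on genes, UMIs and mitochondrial share and 4267 were CD8+ Tc. The 89 members had a UMI in at least 3 of the 5 interferon-induced genes Isg15, Ifit1, Ifit3, Ifit1bl1 and Ifih1, and none of the proliferation genes Mki67 and Top2a. The 2350 other CD8+ Tc without Mki67 and Top2a UMIs served as the comparison.

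There were 4 libraries from 4 recipients, 2 for each donor genotype. All recipients were lethally irradiated BALB/c mice given 10000 WEHI-3B cells, a mouse myelomonocytic leukemia line, and C57BL/6 bone marrow. On day 2 they were injected with 200000 donor T cells. The donors were Havcr2fl/fl;E8icre/+, in which Cre driven by a Cd8a enhancer deletes Havcr2, the gene of TIM-3, in CD8+ Tc, or Havcr2fl/fl, which carry the floxed allele without Cre. On day 23 splenic T cells were enriched with a pan-T kit and stained with an oligonucleotide-tagged antibody to the donor molecule H-2Kb. The labels give this kit, whereas the study's text also speaks of sorting by FACS, and the sources used here do not settle which cells were loaded. Which exons the floxed allele loses is not given in the sources used here, so the 3′ UMI count of Havcr2 does not check the deletion, and the ages of single mice are not in the labels. Nothing joins a replicate number of one genotype to that of the other. Values by library stand below in the order Havcr2fl/fl;E8icre/+ replicates 1 and 2, then Havcr2fl/fl replicates 1 and 2.

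Type I interferons bind the receptor IFNAR1/IFNAR2, whose kinases JAK1 and TYK2 start the assembly of the transcription factor ISGF3. It binds the interferon-stimulated response element (ISRE) upstream of the interferon-stimulated genes. Interferon-γ has its own receptor and acts mainly on another motif, and both interferons raise many of the same genes in Tc. The products restrict viruses, sense nucleic acids, modify proteins with ISG15, present antigen and feed back on the receptor.

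The 4 stretches below were chosen because they lie before the start of rule genes and hold letters that match the ISRE core. Their matches were thus fixed by this choice. The letters searched were GAAA, any 2 bases and GAAA again, on either strand, so that TTTC, any 2 bases and TTTC is a match on the other strand, and matches may overlap. The sequences are RefSeq promoters on GRCm38.p6, the build of the files (mm10). They are written 5′ to 3′ on the strand of the gene, and capitals mark the matches.
Isg15 (chr4:156200845-156200926, minus strand): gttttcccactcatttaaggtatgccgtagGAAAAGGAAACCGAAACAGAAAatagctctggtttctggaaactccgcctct
Ifit1 (chr19:34640755-34640843, plus strand): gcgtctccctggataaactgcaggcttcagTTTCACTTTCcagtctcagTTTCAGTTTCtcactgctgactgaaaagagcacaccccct
Ifit3 (chr19:34583343-34583446, plus strand): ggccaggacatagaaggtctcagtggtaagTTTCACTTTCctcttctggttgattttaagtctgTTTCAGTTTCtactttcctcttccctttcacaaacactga
Ifit1bl1 (chr19:34602033-34602102, minus strand): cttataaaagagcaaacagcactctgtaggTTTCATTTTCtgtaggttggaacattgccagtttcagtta
Ifit1bl1 has a second start in the RefSeq table, not shown. The Isg15 stretch holds 3 matches that overlap, those of Ifit1 and Ifit3 hold 2 each and that of Ifit1bl1 holds 1. The farthest match begins 78 bases before the start of Isg15, 104 before Ifit1, 156 before Ifit3 and 104 before Ifit1bl1. Ifih1 has its match within its first transcribed bases and is not shown.

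The next 3 stretches stand for genes that the rule did not use and that were among those with the largest differences between members and other cells, described below. Rsad2 encodes viperin, Slfn5 a Schlafen protein and Oas3 an oligoadenylate synthetase.
Rsad2 (chr12:26456533-26456602, minus strand): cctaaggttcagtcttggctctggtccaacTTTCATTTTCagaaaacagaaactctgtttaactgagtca
Slfn5 (chr11:82951917-82951986, plus strand): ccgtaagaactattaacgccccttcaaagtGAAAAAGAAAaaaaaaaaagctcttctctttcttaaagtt
Oas3 (chr5:120777695-120777764, minus strand): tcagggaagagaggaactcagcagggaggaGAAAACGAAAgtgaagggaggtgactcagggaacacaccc
Each holds 1 match, which begins 120, 155 and 75 bases before the start. In windows from 250 bases before to 50 bases after the start, the letters were found in all 5 rule genes and in 3.99% of 27025 RefSeq genes. A match is a description of letters, not of a bound site. The window of Oasl2, Cmpk2, Ube2l6 and Phf11c held none.

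The members numbered 29, 32, 11 and 17 by library, from 1542, 960, 493 and 1272 CD8+ Tc. No barcode of a member occurred in another library, and 17 barcodes of all cells were shared between libraries. Their depth was close to that of the other cells. The median was 4299, 5454.5, 6642 and 3269 UMIs per member against 3976, 5699, 6099.5 and 2736.5 per other non-dividing CD8+ Tc. The members' UMIs summed to 140743, 197655, 91810 and 59444. Of the 89 members, 58 had 3 of the 5 markers, 20 had 4 and 11 had 5.

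Isg15, a ubiquitin-like protein, had a UMI in 78 members, and in 13.8% of the other cells. Ifit1, which binds viral RNA, had one in 65 members, Ifit1bl1, a gene of the same family, in 68, Ifit3 in 41 and Ifih1, the RNA sensor MDA5, in 57. The pair found together most often was Isg15 with Ifit1bl1, in 58 members, and the least frequent was Ifit3 with Ifih1, in 22. Isg15 stood at 358, 496, 350.2 and 1878 CPM in the members by library, where CPM is the gene's share of all UMIs of a library and class on the scale of edgeR's cpm function after TMM scaling, and Ifit1 at 323, 417, 292 and 777 CPM. Havcr2fl/fl replicate 2 was highest for both. These 5 genes chose the cells, and their levels carry no test.

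The rule itself required a Cd3 and a Cd8 UMI, so the values of these genes describe the members and do not check the label. Cd3d had a UMI in 89, Cd3g in 87 and Cd3e in 85 of the 89 members, Cd8b1 in 87 and Cd8a in 79. Cd8a stood at 976, 924, 700.5 and 664 CPM in the members and 826, 814, 799 and 789.8 CPM in the other cells. Cd8b1 stood at 716, 1066, 934 and 1198 CPM in the members and 749, 997, 1021 and 926 CPM in the other cells, so that both classes overlapped for both genes. The H-2Kb tag, which the rule did not use, had values in members near those of the rest. Its median was 1385, 1496.5, 2449 and 1208 tag UMIs per member and 1289, 1661, 1980.5 and 1070 per other cell. The log2 ratio of medians was 0.11 ± 0.19 (SD, n = 4 libraries; exact sign-flip permutation test, two-sided, p = 0.375, smallest possible 0.125).

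RNA of other cell types was found in 5 members. In 3 of them, 1 in each library but Havcr2fl/fl;E8icre/+ replicate 2, 21.9% to 48.3% of the UMIs came from 7 erythroid genes, mainly globins, and in the other 2, from replicate 1 of each genotype, 23.4% and 23.5% came from 9 myeloid and leukemia genes, led by S100a8 and S100a9. Like all members they had Cd3 and Cd8 UMIs by the rule. The highest such share in the other 84 members was 0.158%. Over 1% was found in 5 of 89 members (5.62%) and in 16 of 2350 other cells (0.681%). Counts of genes, and the lists and named genes whose calls changed, are therefore also given without the cells above 1%, a limit chosen after the data were seen. The myeloid list summed to 6130, 42.2, 46267 and 48.6 CPM in the members and to 61.8, 37.6, 97.4 and 73.6 CPM in the other cells. Without the cells above 1% it summed to 69.7, 43.4, 106 and 52.7 CPM. The NK cell list, none of whose genes was tested, summed to 84.3, 15.8, 677 and 0 CPM in members and to 9.70, 17.6, 17.9 and 11.5 CPM in other cells, led by Tyrobp, which myeloid cells also express, and without the cells above 1% to 15.5, 16.3, 0 and 0 CPM. The erythroid list summed to 15406, 285, 59343 and 29065 CPM in members and 3327, 833, 3062 and 3198 CPM in other cells, and without these cells to 132, 293, 227 and 492 CPM against 188, 232, 269 and 693 CPM. The 5 erythroid genes tested, Hbb-bs among them (log2 2.32), and S100a8 and S100a9 (log2 6.88 and 7.03) passed the test described below with these cells. Without Havcr2fl/fl replicate 1 these 3 values were 1.62, 5.73 and 5.93, and without Havcr2fl/fl;E8icre/+ replicate 2, which has no such member, 3.19, 8.03 and 7.82. Without the cells above 1% Hbb-bs was at −0.22 and S100a9 at 0.88, neither past the test, and S100a8 fell under the filter on low counts. Neither of the 2 B cell genes tested passed. Igkc, the immunoglobulin kappa constant gene, was the most abundant of that list, at 176, 222, 198 and 664 CPM in members and 193, 246, 295 and 789 CPM in other cells. No gene of the lists for dendritic cells, NK cells and platelets had counts enough for a test, and 4 of 6, 2 of 4 and 2 of 3 of these genes were at 0 in all members. Whether other RNA in the libraries adds to the smaller values was not tested.

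The first comparison asked which genes outside the rule differ between interferon-stimulated cells and other non-dividing CD8+ Tc of the same mice. UMIs were summed per library and class, and edgeR's quasi-likelihood test took the library as a block. Of 7656 genes tested, 118 (1.54%) were higher and 11 (0.144%) were lower at a Benjamini-Hochberg adjusted p under 0.05. Of the 118, 99 were higher in 4 of 4 libraries, and how many of all 7656 genes were so is not given here. Of the 7656, 195 had all member values above all values of the other cells, so such consistency is not particular to called genes. In the lists of interferon pathway genes were 53 of the 118, and the tested genes of each list are numbered below. Without the cells that held RNA of other types, 94 of 7571 genes (1.24%) were higher and 9 (0.119%) lower, and 86 and 8 of these were the same genes. By list, the higher genes were then 22 of 26 antiviral effectors in place of 25 of 28 and 2 of 14 cell death genes in place of 3. They were 2 of 9 cytotoxic genes in place of 1, with Gzma added, which is also in the short-term effector list. The limits of the Gzma call are given below. Of 18 MHC class I genes 2 were higher in place of 1. None of the erythroid and myeloid genes was then called. In the other lists the calls stayed with the same genes. Usp18, Irf7, Gbp6 and Cd274, described below, stood at log2 3.88, 1.78, 2.23 and 1.41 without these cells (adjusted p = 4.71e-12, 7.85e-05, 3.42e-22 and 0.0245). Of the lower genes Anp32b, Sptbn1 and Cltb lost their calls (adjusted p = 0.143, 0.0794 and 0.0766). The genes outside the rule were measured in the same cells that the rule chose, and the comparison describes what goes together in a cell, not a response to a treatment. The interferon lists were chosen with earlier results of these data known.

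**Figure D1:**
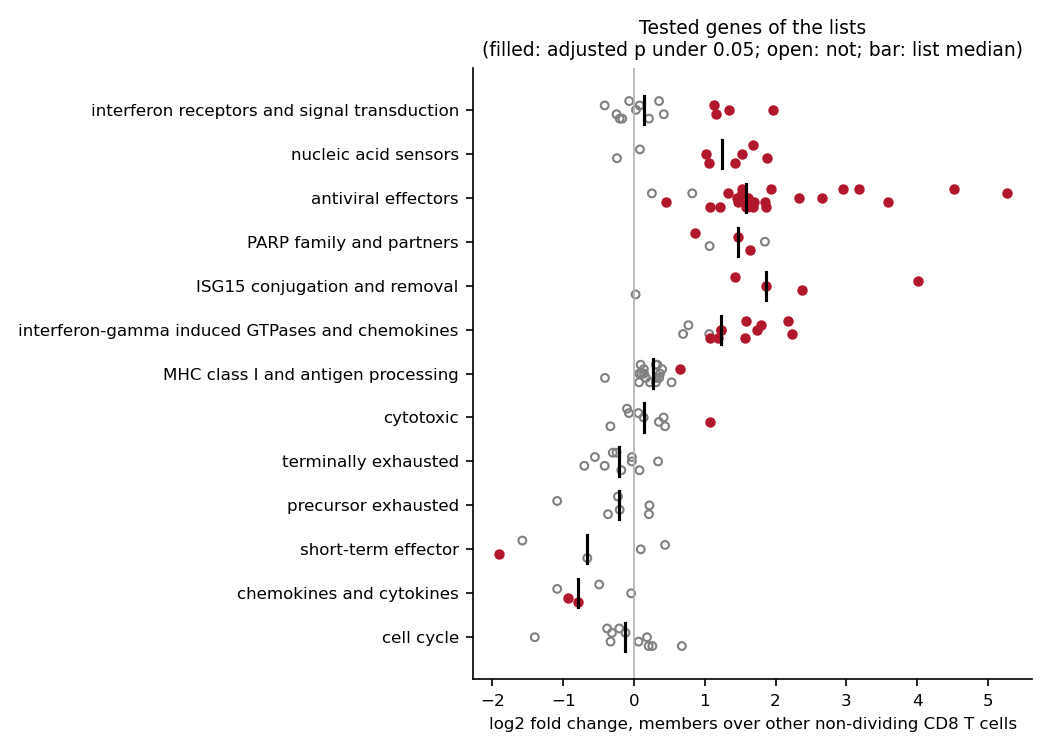
Each point is 1 tested gene of a list, placed by its log2 fold change (members over other non-dividing CD8+ Tc) on the horizontal axis, filled where the adjusted p was under 0.05 and open where it was not, and bars mark list medians. Points of the sensors, antiviral effectors, ISG15 enzymes and GTPases lie mostly above 1, those of MHC class I between −0.41 and 0.65, and those of exhaustion and cell cycle around 0.

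The antiviral effectors were the list with the most higher genes. Of 37 genes in this list 28 could be tested, 25 were higher and none was lower, with a median log2 fold change of 1.59 against −0.05 over all genes tested. Rsad2, which makes a chain-terminating nucleotide, stood at 91.3, 179, 23.3 and 502 CPM in the members and at 6.65, 4.004, 3.46 and 19.96 CPM in the other cells (log2 4.52 ± 0.33 SE, adjusted p = 5.19e-22). The lowest member value lay just above the highest value of the other cells. It had a UMI in 29.2% of members and 2.21% of other cells. Cmpk2, its genomic neighbor and a nucleotide kinase, stood at 42.1, 68.6, 105 and 80.96 CPM against 6.37, 2.46, 8.07 and 8.87 CPM (log2 3.59 ± 0.45, adjusted p = 6.22e-10). Slfn5 stood at 42.1, 206, 222 and 210.5 CPM against 16.1, 30.8, 19.6 and 10.2 CPM (log2 2.95 ± 0.30, adjusted p = 4.6e-14). For both, all 4 member values were above all 4 values of the other cells. Oas3, which makes the oligoadenylates that activate RNase L, stood at 84.3, 36.9, 46.7 and 113 CPM against 9.98, 11.1, 5.19 and 14.6 CPM (log2 2.66 ± 0.43, adjusted p = 1.59e-06). Oasl2, a related gene, had the largest log2 fold change of this list with all members kept, 5.27 ± 0.61, on 7, 5, 9 and 6 member UMIs. Part of the Rsad2 and Oasl2 counts came from the 5 members with RNA of other types. Without them Rsad2 had 11, 34, 0 and 12 member UMIs and Oasl2 4, 5, 0 and 2, and both fell under the filter on low counts, whereas Cmpk2, Slfn5 and Oas3 kept their calls (log2 3.25, 2.58 and 2.51). Ifitm3, an endosomal restriction factor, was higher with those cells (log2 3.18, and 1.87 without Havcr2fl/fl replicate 1) and at −1.03 without them (adjusted p = 0.932). Rtp4, which assists the transport of receptors, stood at 84.3, 132, 187 and 291 CPM against 34.6, 32.6, 20.2 and 31.5 CPM (log2 2.34 ± 0.27, adjusted p = 2.88e-11) and was found in 42.7% of members and 11.6% of other cells.

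**Figure D2:**
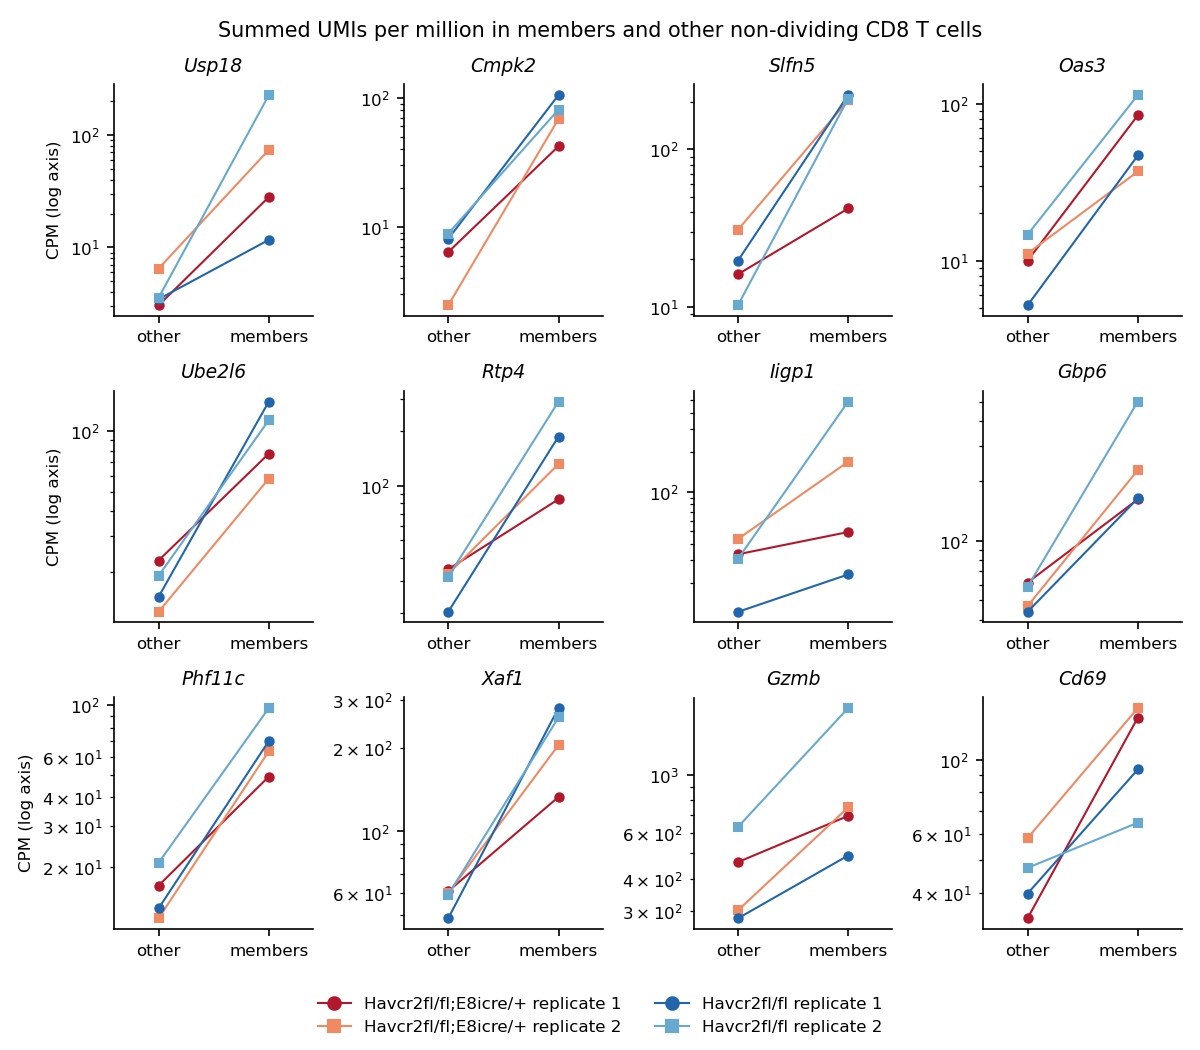
Each panel shows 1 gene, with the level in CPM (log axis) in other non-dividing CD8+ Tc and in members, and a line for each library. Every line of the 12 panels goes up from other cells to members. For Usp18 the members of Havcr2fl/fl replicate 2 reach 227 CPM and those of Havcr2fl/fl replicate 1 reach 11.7 CPM.

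The list summed to 6474, 7578, 7203 and 8161 CPM in members by library and to 3231, 3427, 2831 and 2880 CPM in the other cells. Over the 4 libraries together, and without TMM scaling, it summed to 2973 CPM in cells without a marker, 3345 with 1, 4202 with 2, 5895 with 3, 6884 with 4 and 14110 with 5. By library the list stood at 4424, 4420, 3323 and 4067 CPM in the cells just outside the limit, with 2 markers (203 cells), and at 5759, 5336, 6473 and 7218 CPM in those just inside, with 3 (58 cells). It stood at 7865, 5217, 7131 and 10097 CPM with 4 markers and at 12096, 19225, 6892 and 15114 CPM with 5. The order by number of markers did not hold in Havcr2fl/fl;E8icre/+ replicate 2 between 3 and 4 markers, nor in Havcr2fl/fl replicate 1 between 4 and 5, where 1 cell had 5. Of the 11 cells with 5 markers 6 came from Havcr2fl/fl;E8icre/+ replicate 2. Median depth ran from 3847 to 4892.5 UMIs over the classes and was 3950 in the cells with 5 markers. The limit of 3 markers thus cuts a range of values.

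**Figure D3:**
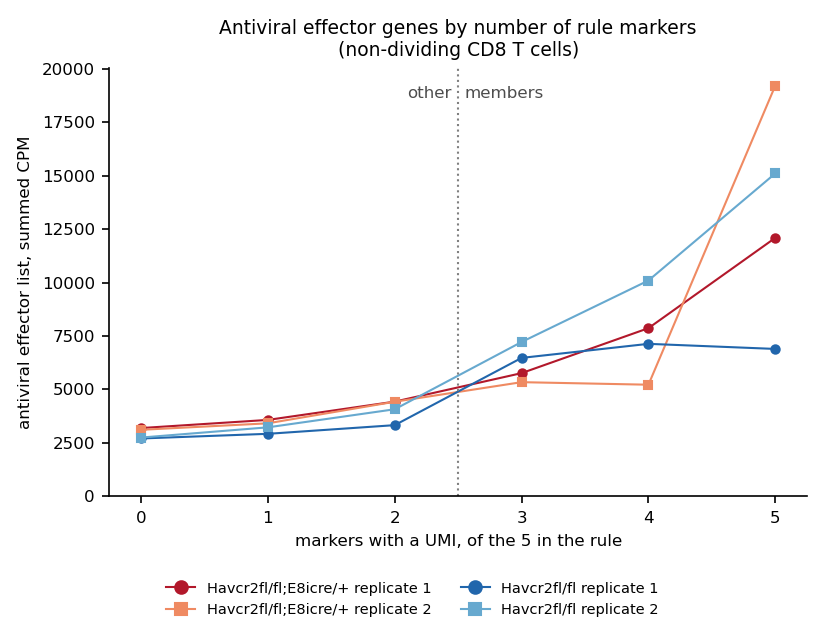
The summed CPM of the antiviral effector list (vertical axis) in non-dividing CD8+ Tc is plotted by the number of rule markers with a UMI (horizontal axis, 0 to 5), with 1 line per library and a dotted line at the limit for members. Havcr2fl/fl;E8icre/+ replicate 2 reaches 19225 CPM at 5 markers on 6 cells, while Havcr2fl/fl replicate 1 has a single cell there, at 6892 CPM.

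Enzymes that attach and remove ISG15 were higher as well, 4 of 5 genes tested (median log2 1.86). Usp18, the protease that removes ISG15 and also blocks IFNAR2, stood at 28.1, 73.9, 11.7 and 227 CPM in members and 3.05, 6.47, 3.46 and 3.55 CPM in other cells (log2 4.01 ± 0.50, adjusted p = 3.43e-10, and 3.22 without Havcr2fl/fl replicate 2). The member values spanned a wide range, on 4, 14, 1 and 14 UMIs, yet all lay above the other cells. Ube2l6, the conjugating enzyme for ISG15, stood at 77.2, 58.1, 140.1 and 113 CPM against 22.7, 12.6, 14.98 and 19.1 CPM (log2 2.37 ± 0.35, adjusted p = 1.04e-07), and Herc6, its ligase in mice, at 183, 216, 70.05 and 372 CPM against 57.6, 58.2, 42.6 and 59.4 CPM (log2 1.86 ± 0.22, adjusted p = 6.88e-11). In thinned cells Ube2l6 stood at 1.17 and lost its call (adjusted p = 0.69). In the list of negative regulators 2 of 6 genes were higher. One was Usp18 and the other Samhd1, a dNTP hydrolase (log2 1.46 ± 0.14, adjusted p = 1.01e-15). Socs1, which inhibits JAK kinases, stood at log2 0.59 ± 0.24 and did not pass (adjusted p = 0.411). Against all other CD8+ Tc, dividing cells included, it stood at 0.999 and passed (adjusted p = 0.00448).

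Sensors of nucleic acids followed. Of 8 genes tested 6 were higher (median log2 1.24). Zbp1, the sensor of Z-form nucleic acids that can start necroptosis, stood at 246, 369, 257 and 275 CPM against 111, 97.6, 89.3 and 109 CPM (log2 1.53 ± 0.18, adjusted p = 1.96e-11) and had a UMI in 74.2% of members and 33.5% of other cells. Ddx58, the RNA sensor RIG-I, stood at 133, 201, 105 and 178 CPM against 88.1, 72.4, 68.00 and 71.4 CPM (log2 1.06 ± 0.22, adjusted p = 0.000586). All member values of both genes lay above those of the other cells, but the Ddx58 call was lost without Havcr2fl/fl;E8icre/+ replicate 2 (log2 0.79, adjusted p = 0.26). Dhx58, the related sensor LGP2 (log2 1.87 ± 0.53, adjusted p = 0.0403), did not pass without any of Havcr2fl/fl replicate 1 (log2 1.84, adjusted p = 0.0852), Havcr2fl/fl replicate 2 (1.04, 0.841) and Havcr2fl/fl;E8icre/+ replicate 1 (2.19, 0.0761). Trim25, which ubiquitinates RIG-I, was higher at log2 1.42 ± 0.30 (adjusted p = 0.000757), but stood at 0.78 with at least 2 markers (adjusted p = 0.0831) and lost its call in thinned cells (0.613).

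Of 14 receptors and signal transducers tested 4 were higher (median log2 0.15), among them Irf9, Stat2 and Irf7. Irf9, a subunit of ISGF3, stood at 154, 153, 93.4 and 113 CPM against 68.5, 58.5, 63.4 and 53.2 CPM (log2 1.14 ± 0.24, adjusted p = 0.000557, and adjusted p = 0.0971 without Havcr2fl/fl;E8icre/+ replicate 2). Stat2 was higher at log2 1.35 ± 0.35 (adjusted p = 0.0169), and lost the call without Havcr2fl/fl replicate 2 (adjusted p = 0.463) or without Havcr2fl/fl;E8icre/+ replicate 2 (0.0755). Irf7, the factor that amplifies type I interferon genes, stood at 77.2, 47.5, 58.4 and 259 CPM against 24.9, 21.9, 25.9 and 19.5 CPM (log2 1.96 ± 0.35, adjusted p = 1.66e-05). Havcr2fl/fl replicate 2 was highest, and without it the value was 1.34 (adjusted p = 0.0666). Ifnar2, a chain of the receptor, stood at log2 0.42 ± 0.28 and did not pass (adjusted p = 0.843).

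Genes that interferon-γ induces were higher too. Of 13 GTPases and chemokines tested, 10 were higher (median log2 1.24) and all 13 had positive values. Gbp6, a guanylate-binding protein that attacks vacuoles of pathogens, stood at 162, 227, 163 and 502 CPM against 61.5, 46.8, 43.8 and 58.5 CPM (log2 2.18 ± 0.21, adjusted p = 1.63e-14) and was found in 58.4% of members and 19.5% of other cells. Irgm1, an immunity-related GTPase, stood at 189.6, 84.4, 117 and 227 CPM against 46.3, 36.96, 41.5 and 40.8 CPM (log2 1.79 ± 0.25, adjusted p = 2.77e-08). Iigp1, another such GTPase, ranged over 49.2, 169, 23.3 and 486 CPM in members and 33.3, 43.4, 12.1 and 30.6 CPM in other cells (log2 2.23 ± 0.29, adjusted p = 2.58e-09, and 1.49 without Havcr2fl/fl replicate 2). Its member and other values overlapped between libraries, although it was higher in 4 of 4. Cd274, the gene of PD-L1, stood at 42.1, 47.5, 58.4 and 227 CPM against 20.8, 22.2, 25.4 and 21.7 CPM (log2 1.74 ± 0.37, adjusted p = 0.000666), a call that was lost without Havcr2fl/fl replicate 2 (log2 1.10, adjusted p = 0.328). Ifng itself stood at 98.3, 73.9, 46.7 and 32.4 CPM in members and 90.6, 91.2, 105 and 127 CPM in other cells (log2 −0.49 ± 0.27, adjusted p = 0.711). The genes of type I interferons in the list had too few counts for a test.

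MHC class I genes had smaller differences. Of 18 tested, 17 had positive values with a median log2 of 0.27, and Tap1, a chain of the peptide transporter, was the 1 that passed (372, 306, 420.3 and 324 CPM against 268, 204, 206 and 214 CPM, log2 0.65 ± 0.15, adjusted p = 0.00249). Its call was lost without Havcr2fl/fl replicate 1 (log2 0.53, adjusted p = 0.113). Psmb8, a subunit of the immunoproteasome, stood at log2 0.36 (adjusted p = 0.155) and passed without the cells with other RNA (log2 0.38, adjusted p = 0.024). H2-T22, a nonclassical class I gene, stood at log2 0.53 ± 0.17 (adjusted p = 0.096). It passed with at least 2 markers (0.45, adjusted p = 0.00664) and against all other CD8+ Tc (0.52, adjusted p = 0.0377).

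Several of the higher genes are neighbors on the chromosome. Of the 118, 45 (38.1%) had another of the 118 within 200000 bases, and 4.10% of the 7535 other tested genes with a position had one of the 118 as near. Positions are on GRCm38 (mm10) from the GENCODE M21 annotation. The largest cluster held 7 genes of the Ifi200 family, sensors of DNA (chr1:173468485-173942672). Parp14, Dtx3l and Parp9, which act together in ADP-ribosylation and ubiquitination, lie in 1 cluster (chr16:35832874-35972605). They were the 3 of 5 genes that passed in the list of PARP proteins and partners, but Dtx3l (log2 0.86, adjusted p = 0.00295) lost its call without Havcr2fl/fl;E8icre/+ replicate 2 (0.68, adjusted p = 0.285), with the stricter cell filter (0.0694), with a comparator matched on UMIs (0.16) and in thinned cells (0.198). In it Parp14 stood at 400.3, 517, 269 and 551 CPM against 167, 148, 145 and 167 CPM (log2 1.47 ± 0.15, adjusted p = 1.04e-13) and Parp9 at log2 1.64 ± 0.23 (adjusted p = 1.62e-08). Other clusters held 4 Schlafen genes (chr11:82951349-83122670), Rsad2 with Cmpk2 (chr12:26442746-26479837), 3 Gbp genes (chr5:105077630-105293698) and 3 Phf11 genes (chr14:59276913-59395381). Phf11c, a PHD finger gene of the last cluster, stood at 49.2, 63.3, 70.05 and 97.2 CPM against 16.6, 12.01, 13.3 and 20.8 CPM (log2 2.13 ± 0.39, adjusted p = 3.36e-05). In such families reads can fit more than 1 copy, and how these were assigned is not given in the sources used here, so the split among copies is uncertain. The globin genes and S100a8 with S100a9 also count as neighbors here, from the cells with RNA of other types. The ISRE letters shown above were found in the promoter windows of 32 of the 99 higher genes with a window (32.3%), of 4.12% of tested genes and of 0 of 9 lower genes. Among the genes higher without the cells with other RNA the share was 38.5%.

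The second group of lists concerned what kind of Tc the members were. Few effector, exhaustion and memory genes passed the test. Of 9 cytotoxic genes 1 was higher, Gzmb, the protease granzyme B, at 695, 749, 490.3 and 1797 CPM in members and 463, 302, 282 and 629.7 CPM in other cells (log2 1.08 ± 0.13, adjusted p = 2.62e-10). It was higher in 4 of 4 libraries and most so in Havcr2fl/fl replicate 2, although the values of the classes overlapped between libraries. The call held without each library in turn and without the cells with other RNA (log2 1.13), but was lost without the library block (adjusted p = 0.169) and in thinned cells (adjusted p = 0.556). Gzma stood at log2 0.44 ± 0.14 (adjusted p = 0.107, and 0.0393 without the cells with other RNA). It had a UMI in 22.5% of members and 26.4% of other cells. In both libraries labelled Havcr2fl/fl;E8icre/+ the members were below the other cells, with values given further on. It passed as higher with at least 2 markers (0.86, adjusted p = 1.72e-05). In thinned cells, where the median of all genes was −0.69, it passed as lower (−1.68, adjusted p = 2.81e-06). It was at 0.022 without Havcr2fl/fl replicate 1 (adjusted p = 1) and at 0.60 without Havcr2fl/fl;E8icre/+ replicate 2, where it passed (adjusted p = 0.0126). Cd69, which retains lymphocytes in tissue and is an early activation marker, stood at 133, 142, 93.4 and 64.8 CPM against 33.5, 58.2, 39.8 and 47.5 CPM (log2 1.38 ± 0.26, adjusted p = 8.96e-05), with all member values above the other cells. Its call was lost without Havcr2fl/fl;E8icre/+ replicate 1 (log2 1.12, adjusted p = 0.0733) and with at least 2 markers (0.59, adjusted p = 0.255). It was the 1 of 4 residency genes and of 8 early T cell receptor response genes that passed. Egr1, another of the latter, had 4, 1, 0 and 0 member UMIs (log2 −1.77 ± 0.60, adjusted p = 0.151). It was at −3.68 without Havcr2fl/fl;E8icre/+ replicate 1, where it passed (adjusted p = 0.0386), and at −1.09 without Havcr2fl/fl;E8icre/+ replicate 2 (adjusted p = 0.921). Tnfrsf9, the costimulatory receptor 4-1BB, stood at log2 −0.74 ± 0.26 (adjusted p = 0.181), and passed against all other CD8+ Tc (−0.91, adjusted p = 0.00796).

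No exhaustion gene passed in this comparison, though Tox, Pdcd1 and Nr4a2 did with other settings. Of 10 genes of terminal exhaustion 2 had positive values and the median log2 was −0.21. Of 6 genes of precursor exhausted Tc 2 had positive values, with a median of also −0.21. Tox, the factor that maintains exhaustion, stood at 583, 644, 315 and 340.0 CPM against 642, 727, 647 and 527 CPM (log2 −0.41 ± 0.14, adjusted p = 0.155). Pdcd1, the gene of PD-1, stood at 288, 274, 280.2 and 275 CPM against 345, 317, 395 and 337 CPM (log2 −0.30 ± 0.15, adjusted p = 0.632). Both were found in most cells of either class. Tox passed as lower with at least 4 markers (log2 −0.80, adjusted p = 0.0324), in thinned cells (−1.22, adjusted p = 0.0291) and with no filter on low counts (−0.53, adjusted p = 0.0238), and Pdcd1 with at least 4 markers (−1.04, adjusted p = 0.0173). The median log2 over all genes tested was −0.31 with at least 4 markers, −0.69 in thinned cells and −0.37 with no filter. Tcf7, the gene of TCF-1 in precursor cells, stood at 91.3, 84.4, 70.05 and 32.4 CPM against 81.2, 144, 76.1 and 54.5 CPM (log2 −0.37 ± 0.27, adjusted p = 0.889), and Nr4a2 at log2 −0.70 ± 0.22 (adjusted p = 0.096, 0.042 against all other CD8+ Tc and 0.0247 with no filter). Of 5 naive or memory genes and 11 cell cycle genes none passed. Stmn1, a tubulin regulator of dividing cells, had 0, 2, 1 and 5 member UMIs (log2 −1.40 ± 0.48, adjusted p = 0.168). Havcr2 had a UMI in 9 of 89 members and in 13.7% of other cells and stood at 42.1, 15.8, 0 and 162 CPM against 48.2, 9.24, 46.1 and 109 CPM (log2 −0.03 ± 0.38, adjusted p = 0.995). It had 6, 3, 0 and 10 member UMIs. In members the 2 libraries labelled Havcr2fl/fl;E8icre/+ thus lay between those labelled Havcr2fl/fl, while in the other cells Havcr2fl/fl;E8icre/+ replicate 2 was below both of them and replicate 1 was between them.

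In the list for cell death 3 of 14 genes were higher. They were Zbp1, described above, Xaf1, an inhibitor of the caspase inhibitor XIAP, at 133, 206, 280.2 and 259 CPM against 60.7, 59.7, 48.4 and 58.98 CPM (log2 1.85 ± 0.22, adjusted p = 3.38e-11), and Casp4, the inflammatory caspase-11 (log2 1.05 ± 0.30, adjusted p = 0.047). Casp4 lost its call without the cells with other RNA (adjusted p = 0.236) and without any of Havcr2fl/fl;E8icre/+ replicates 1 and 2 and Havcr2fl/fl replicate 2 (adjusted p from 0.234 to 0.352). Bcl2, which protects from apoptosis, stood at log2 −0.47 ± 0.15 (adjusted p = 0.0884). It passed as lower with at least 4 markers (−0.95, adjusted p = 0.0131), in thinned cells (−1.63, adjusted p = 0.00733) and with no filter on low counts (−0.59, adjusted p = 0.0151). Over all genes tested the median log2 in these fits was −0.31, −0.69 and −0.37.

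Of the 11 lower genes, Ifitm1, Adprhl2, Cltb, Sostdc1 and Zeb2 had 1 to 7 member UMIs each, while Anp32b, Dut and Sptbn1 were found in 51, 39 and 20 members. Ccl3 and Ccl4, both chemokines, are described further on, and Nrgn stood at log2 −0.89 (adjusted p = 0.0483). Ifitm1, another restriction factor of the interferon-induced transmembrane family, had 1 UMI in all members and 1161 in the other cells, a ratio of 0.0187 (exact 95% interval 0.000474 to 0.105, counting error only). Those 1161 UMIs came from 81 of 2350 cells (3.45%), and 1 of 89 members (1.12%) had any. Its call was lost without the library block (adjusted p = 0.191) and in thinned cells (0.0652). Its level in other cells was 87.6, 18.2, 135 and 244 CPM by library. Sostdc1, a secreted BMP antagonist, had 3 UMIs in 1 member and 368 in 83 other cells (ratio 0.177, interval 0.0364 to 0.522). Adprhl2, an ADP-ribose hydrolase, had 1 member UMI (ratio 0.0814, interval 0.00205 to 0.458) and Cltb, a clathrin light chain, 2 (ratio 0.147, interval 0.0177 to 0.535). Adprhl2 and Cltb lost their calls without any 1 of the 4 libraries (adjusted p 0.0768 to 0.251 and 0.0533 to 0.347), and Sostdc1 without Havcr2fl/fl;E8icre/+ replicate 1 (0.0766). Zeb2, a transcription factor of effector Tc, stood at 28.1, 10.6, 0 and 16.2 CPM in members and 64.3, 48.4, 55.9 and 52.3 CPM in other cells (log2 −1.91 ± 0.47, adjusted p = 0.00769), on 4, 2, 0 and 1 member UMIs, and was at −2.51 without Havcr2fl/fl;E8icre/+ replicate 1. It was lower in 4 of 4 libraries and was the 1 of 5 short-term effector genes that passed, and without Havcr2fl/fl replicate 1 or Havcr2fl/fl;E8icre/+ replicate 2 it did not (adjusted p = 0.0693 and 0.12). With at least 2 markers Zeb2 stood at −0.20 (adjusted p = 0.934), and its call was also lost by DESeq2 (0.205), with at least 4 markers (0.0881) and in thinned cells (0.613). Klre1, an NK receptor in the same list, stood at log2 −1.58 ± 0.51 (adjusted p = 0.118) and at −3.68 without Havcr2fl/fl;E8icre/+ replicate 2, where it passed (adjusted p = 0.0126). Dut, a dUTPase, was found at 112, 121, 58.4 and 259 CPM against 228, 187, 149.8 and 304 CPM (log2 −0.73 ± 0.20, adjusted p = 0.023). Sptbn1, a spectrin, and Anp32b, a histone chaperone, stood at log2 −1.03 and −0.59 (adjusted p = 0.0372 and 0.0227). The calls of these 3 were each lost without 3 or more of the 4 libraries (adjusted p 0.0696 to 0.408 where lost), and DESeq2 called 1 lower gene in all. Among the higher genes Cd24a, a surface glycoprotein (log2 2.69), lost its call without 1 library (2.25, adjusted p = 0.126 without Havcr2fl/fl;E8icre/+ replicate 1), and it was under the filter on low counts without the cells with other RNA.

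The next question was whether the share of interferon-stimulated cells differs with the donor genotype. Members were 1.88% and 3.33% of CD8+ Tc in the libraries labelled Havcr2fl/fl;E8icre/+ and 2.23% and 1.34% in those labelled Havcr2fl/fl (95% Wilson intervals 1.31% to 2.69%, 2.37% to 4.67%, 1.25% to 3.95% and 0.836% to 2.13%). The means were 2.61% ± 1.03 and 1.78% ± 0.633 (SD, n = 2 each) and the genotypes overlapped. The log2 ratio of geometric means was 0.54 (exact permutation test, two-sided, p = 0.667, where 2 against 2 cannot give less than 0.333). Without the cells with other RNA it was 0.66 (exact permutation p = 0.667). With at least 4 markers it was 0.27 and with at least 2 it was 0.71 (exact permutation p = 0.333). With at least 2 the shares were 7.07% and 10.3% in the libraries labelled Havcr2fl/fl;E8icre/+, above 6.90% and 3.93% in the others. With at least 3 markers the log2 ratio was 0.91 without Havcr2fl/fl replicate 1 and 0.17 without Havcr2fl/fl replicate 2. It was 0.95 without Havcr2fl/fl;E8icre/+ replicate 1 and 0.12 without Havcr2fl/fl;E8icre/+ replicate 2. The libraries differed in depth, with a median of 4786.5, 6175, 7004 and 3044 UMIs per CD8+ Tc. When cells were thinned to 2000 UMIs, which left out 572 cells with fewer UMIs, 3 members among them, the members were 0.631%, 1.19%, 0% and 0.46% of 1427, 925, 459 and 1087 CD8+ Tc, on 9, 11, 0 and 5 cells. The 0 of 459 in Havcr2fl/fl replicate 1 allows a share of up to 0.654%, above that of Havcr2fl/fl;E8icre/+ replicate 1, so whether the genotypes overlapped was not detectable at that depth. With that library at this limit of 3 counts the log2 ratio of geometric means was 0.66 (exact permutation p = 0.667). By the 95% Wilson upper bound the share could reach 0.83%, which would give a lower ratio. In the shares as observed both libraries labelled Havcr2fl/fl;E8icre/+ were above both others (log2 ratio of arithmetic means 1.98, exact permutation p = 0.333). Of the non-dividing CD8+ Tc alone, at full depth, the members were 3.56%, 5.55%, 3.89% and 2.22%.

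Cells with at least 3 of the 5 markers occurred outside the members too. Among dividing CD8+ Tc, which have a Mki67 or Top2a UMI, they were 3.30%, 4.70%, 2.86% and 1.18%, at greater depth (median 6380, 7314, 9089 and 4119 UMIs). Both libraries labelled Havcr2fl/fl;E8icre/+ were above both others (log2 ratio 1.10, exact permutation p = 0.333, the smallest possible). Among non-dividing CD4+ Tc they were 3.95%, 2.77%, 0.625% and 1.60% (log2 ratio 1.73, exact permutation p = 0.333), the lowest on 1 of 160 cells. In cells with Klf1, an erythroid factor, and no Cd3 they were 14.5%, 13.6%, 9.04% and 6.26%, at a median of 24224, 13081, 15945 and 18731 UMIs. In cells thinned to 2000 UMIs the shares were 0.745%, 1.08%, 0% and 0.162% in these cells, on 4, 4, 0 and 3 cells. They were 0.662%, 1.47%, 0% and 0.709% in CD8+ Tc, dividing cells included. At equal depth the CD8+ share was thus above the Klf1 share in replicate 2 of each genotype and not above it in the other libraries. The 95% Wilson intervals of both shares overlapped in every library. The 0 of 165 Klf1 cells in Havcr2fl/fl replicate 1 allows up to 1.82% by the limit of 3 counts. The 0 of 480 CD8+ Tc in Havcr2fl/fl replicate 1 allows a share of up to 0.625% by the limit of 3 counts (95% Wilson upper bound 0.794%). In thinned CD4+ Tc, dividing cells included, the shares were 1.26%, 1.29%, 0% and 1.16%, on 7, 8, 0 and 3 cells. After thinning 25 members were left, in 3 libraries, and 21 of them were members at full depth. The part of free RNA in these shares was not tested.

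**Figure D4:**
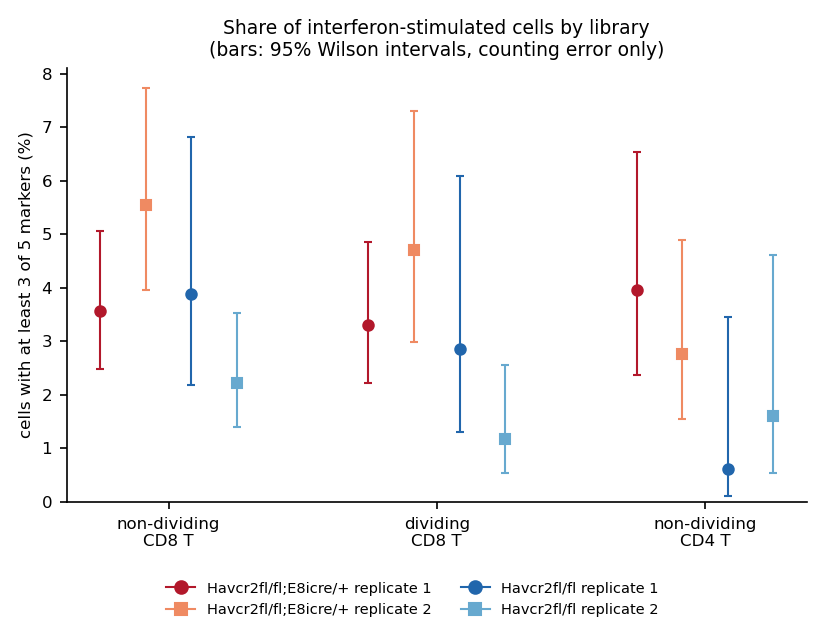
The percentage of cells with at least 3 of the 5 markers (vertical axis) is shown for non-dividing CD8+ Tc (the members), dividing CD8+ Tc and non-dividing CD4+ Tc, with 1 point per library and 95% Wilson intervals that cover counting error only, at full depth, which differed between libraries. The genotypes overlap in non-dividing CD8+ Tc, and in the other classes both points of Havcr2fl/fl;E8icre/+ lie above both of Havcr2fl/fl.

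Within the members, gene expression was compared between the genotypes. Of 1903 genes tested with edgeR none passed in either direction (0%), and 118 had an unadjusted p under 0.05, 60 of them higher in the libraries labelled Havcr2fl/fl;E8icre/+, and the smallest adjusted p was 0.742. DESeq2 called 0 as well, with 17 at an unadjusted p under 0.05. The test rested on 11 to 32 cells per library, and without Havcr2fl/fl;E8icre/+ replicate 1 it called 21 genes and without Havcr2fl/fl replicate 2 it called 12, where the lone library is taken to vary like the pair of the other genotype. Gzmb stood at 686, 702, 495 and 1809.8 CPM (log2 −0.71 ± 0.54, adjusted p = 0.798) and Rsad2 at 90.1, 168, 23.6 and 505 CPM (log2 −0.86 ± 0.97, adjusted p = 0.901), both with overlapping genotypes. For Gzma the genotypes did not overlap, at 1005, 589, 1555 and 3424 CPM (log2 −1.64 ± 0.47, adjusted p = 0.742). Nor did they for Ccl4, at 970, 618, 94.3 and 457 CPM (1.61 ± 0.59, adjusted p = 0.742), Prf1 and Ccl5. These genes were chosen after their values were seen, and how many of the 1903 genes had no overlap is not given here. As for the shares, 2 libraries against 2 cannot give an exact permutation p under 0.333. The separation is therefore not read as a genotype difference. Usp18, Irf7 and Havcr2 had too few UMIs for this test.

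Finally, the interaction of class and genotype asked for genes whose genotype difference is not the same in members and in other cells. Of 8581 genes tested, 9 (0.105%) had a more positive and 10 (0.117%) a more negative difference in members. Globins, S100a8 and S100a9 were among them. Hbb-bs had an edgeR adjusted p of 2.79e-62, and of 0.935 without the cells with RNA of other types. A small p in this test can thus come from a few cells. Of the 19 genes, 10 were also called without the cells with RNA of other types, and the 5 with the smallest p of these are given here, a restriction added after the data were seen. Ccl4, the chemokine MIP-1β, stood at 969, 666, 91.6 and 432 CPM in members and 1139.9, 639.7, 921 and 1935 CPM in other cells. In both libraries labelled Havcr2fl/fl the members were far below the other cells, and in the other 2 they were close to them (log2 difference of differences 2.47 ± 0.26 SE, edgeR adjusted p = 1.96e-17). The member values rest on 140, 125, 8 and 28 UMIs in 17, 19, 4 and 9 cells. By library, 58.6%, 59.4%, 36.4% and 52.9% of members had a Ccl4 UMI, against 57.1%, 46.8%, 49.3% and 52.8% of other cells. Ccl3, the chemokine MIP-1α, stood at 706, 181, 45.8 and 324 CPM in members and 595, 325, 431 and 995 CPM in other cells (log2 1.88 ± 0.31, adjusted p = 2.43e-06), again lower in members of both libraries labelled Havcr2fl/fl, but also in Havcr2fl/fl;E8icre/+ replicate 2. Over the 4 libraries together, Ccl4 and Ccl3 were the 2 of 5 chemokine and cytokine genes lower in members (log2 −0.93 ± 0.17 and −0.79 ± 0.18, adjusted p = 7.45e-05 and 0.00171), and neither call held without Havcr2fl/fl replicate 2 (adjusted p = 0.162 and 0.246), by DESeq2 (adjusted p = 1 for both), without the library block (0.529 and 0.797), with a comparator matched on UMIs (0.696 and 0.952) or with at least 2 markers (0.988 and 0.931), while Ccl3 was at −1.50 without Havcr2fl/fl;E8icre/+ replicate 1. Each was lower in 3 of 4 libraries. Ccl5 was abundant throughout, at 19203, 23059.9, 13483 and 16679 CPM in members and 19757, 15179, 19220.4 and 22213 CPM in other cells (log2 0.74 ± 0.15, adjusted p = 0.00077). Prf1, the gene of perforin, stood at 512, 197, 149 and 124 CPM in members and 343, 185, 267 and 390.4 CPM in other cells (log2 1.59 ± 0.34, adjusted p = 0.00319). For both genes the members were below the other cells in the libraries labelled Havcr2fl/fl. Gzma went the other way, at 1004, 634, 1512 and 3243 CPM in members and 1123, 662, 478 and 2819 CPM in other cells (log2 −0.998 ± 0.21, adjusted p = 0.00139), and its 132 member UMIs in Havcr2fl/fl replicate 1 came from 3 cells. Ccl4 was the 1 gene that DESeq2 called. It kept its call without each library in turn (log2 2.05 to 3.22), with 3.22 without Havcr2fl/fl replicate 2. Ccl3 lost it without Havcr2fl/fl;E8icre/+ replicate 1 (adjusted p = 0.824) and was at 3.05 without Havcr2fl/fl replicate 2. Ccl5 lost it without Havcr2fl/fl;E8icre/+ replicate 2 (log2 0.45) and with DESeq2 size factors in edgeR (0.65, adjusted p = 0.0899). Prf1 lost it without Havcr2fl/fl;E8icre/+ replicate 1 (0.781) or Havcr2fl/fl replicate 2 (0.418). Gzma lost it without Havcr2fl/fl replicate 1 (log2 −0.34, adjusted p = 0.939), Havcr2fl/fl;E8icre/+ replicate 1 (0.434) or replicate 2 (1), and was at −1.79 without Havcr2fl/fl replicate 2. The call counts without 1 library ran from 5 (without Havcr2fl/fl;E8icre/+ replicate 2) to 28 (without Havcr2fl/fl replicate 2).

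**Figure D5:**
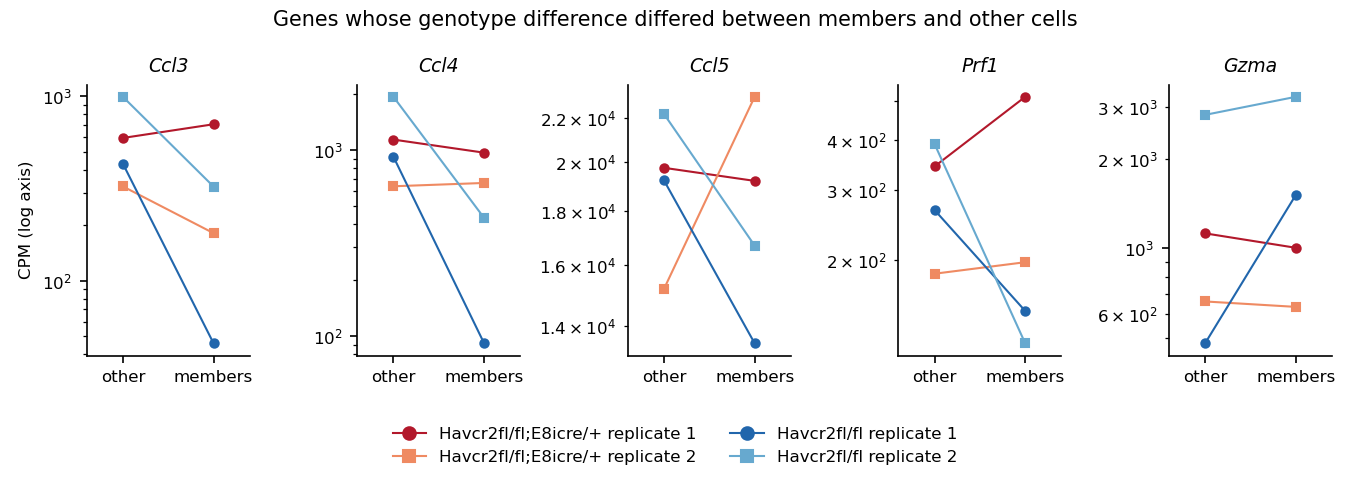
Each panel shows 1 gene, with the level in CPM (log axis) in other non-dividing CD8+ Tc and in members and a line per library. For Ccl4 the lines of Havcr2fl/fl fall to 91.6 and 432 CPM while those of Havcr2fl/fl;E8icre/+ end at 969 and 666 CPM.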

How the data were processed

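UMI counts per gene and barcode were made by the authors with Cell Ranger 6.1.2 on mm10, per the labels, and deposited unnormalized with 1 antibody tag. Library totals were 38386626, 31449644, 17693991 and 55045903 gene UMIs. The members and gene lists were chosen with earlier results of these data known. Libraries, 1 per mouse, are the replicates, and intervals cover counting error only. Counts were summed per library and class (scanpy 1.11.5, Python 3.11.15), and the 14 genes of the rule, gate and division were left out of the tests. Genes passing filterByExpr were fitted with edgeR 4.0.16 (R 4.3.3, TMM, quasi-likelihood, Benjamini-Hochberg), with the library as a block, by genotype in members, or with their interaction. Every adjusted p is from this test unless DESeq2 1.42.0 is named. Scripts were tested on simulated data. Named genes were, within members against others, up to 12 higher and 8 lower by fold change, those moving the same way in 4 of 4 libraries at a mean of 20 CPM or more, up to 5 per list and up to 5 for the interaction. One gene is not reported here. Doublets were kept. Scrublet called 1, 6, 7 and 105 barcodes. Alternatives are listed at the end.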

Additional observations from a re-analysis of the deposited data

Results flagged for a closer look

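The interaction test in edgeR called 19 of 8581 genes, 9 (0.105%) more positive and 10 (0.117%) more negative in members. Of the 19, 10 were also called without the cells with RNA of other types. The 5 of these with the smallest p are flagged, a restriction added after the data were seen. For these 5 the genotype difference itself differed between the interferon-stimulated cells and the other non-dividing CD8+ Tc. The log2 difference of differences (Havcr2fl/fl;E8icre/+ minus Havcr2fl/fl in members, less the same in other cells) was 2.47 for Ccl4, 1.88 for Ccl3, 0.74 for Ccl5, 1.59 for Prf1 and −0.998 for Gzma. Ccl4, Ccl3 and Ccl5 encode chemokines, and Prf1 and Gzma encode cytotoxic granule proteins. The values rest on few cells. In Havcr2fl/fl replicate 1, Ccl4 UMIs came from 4 and Gzma UMIs from 3 of 11 members. Of the 5, only Ccl4 was called by DESeq2 and without each library in turn.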

How the results depend on the processing

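Of 52 named gene results past the threshold, 15 kept direction and call under every alternative that gave a value. Of 740 values of called genes under an alternative, 570 kept both, 161 lost the call and 9 reversed. Of 219 values of genes not called, 20 passed and 3 reversed. The count of higher genes, 118 of 7656 tested, was 187 of 9289 against all other CD8+ Tc and 75 of 7431 with at least 4 markers. It was 35 of 6695 in cells thinned to 2000 UMIs and 30 of 1772 with a comparator matched on UMIs. Without 1 library it was 91 to 109. The same numbers of genes were tested for the lower genes in these fits. The count of lower genes, 11, was 1 by DESeq2, 253 against all other CD8+ Tc, which adds dividing cells, 5 with at least 2 markers, 31 with at least 4, 124 in thinned cells, 0 with the matched comparator (edgeR), 30 with no filter on low counts, 2 with no library block, and 6 to 10 without 1 library. The genotype comparison in members, with 0, gave 32 with no filter and 0 to 21 without 1 library. The interaction, with 19, gave 1 by DESeq2, 12 without cells with erythroid or myeloid RNA and 5 to 28 without 1 library. Against all other CD8+ Tc the H-2Kb log2 ratio turned to −0.092 (exact permutation p = 0.375). Directions turned for Cltb with at least 2 markers (0.18), Ccl4 with at least 2 (0.032), Ifnar2 with at least 4 (−0.29), Tcf7 against all other CD8+ Tc (0.13), Gzma in thinned cells (−1.68, adjusted p = 2.81e-06) and Ifitm3 without the cells with other RNA (−1.03). With at least 4 markers S100a8 (−3.96, adjusted p = 7.17e-10), S100a9 (−3.29, adjusted p = 6.99e-06) and Hbb-bs (−1.22, adjusted p = 7.17e-10) turned and passed as lower. S100a9 and Hbb-bs also turned in thinned cells (−2.26 and −1.04), and Hbb-bs without the cells with other RNA (−0.22). Calls of described genes were lost as follows. By DESeq2 these were Adprhl2, Cltb, Sostdc1, Zeb2, Sptbn1, Dut, Anp32b, Stat2, Dhx58, Ifitm3, Ccl3, Ccl4, Casp4, S100a8, S100a9 and Hbb-bs. With at least 2 markers they were Adprhl2, Zeb2, Sptbn1, Dut, Anp32b, Stat2, Dhx58, Trim25, Ddx58, Tap1, Cd69, Ccl3 and Casp4, and with at least 4 Oas3, Adprhl2, Cltb, Zeb2, Sptbn1, Dut, Anp32b, Irf7, Stat2, Irf9, Dhx58, Cd274, Tap1 and Casp4. In thinned cells they were Oas3, Ube2l6, Ifitm1, Adprhl2, Cltb, Zeb2, Sptbn1, Dut, Anp32b, Irf7, Stat2, Irf9, Trim25, Dtx3l, Irgm1, Cd274, Tap1, Gzmb, Xaf1 and Casp4. With the matched comparator they were Dut, Anp32b, Irf9, Ddx58, Dtx3l, Tap1, Ccl3, Ccl4 and Hbb-bs, and many others fell under the filter on low counts. With no library block they were Cd24a, Ifitm1, Cltb, Sostdc1, Sptbn1, Dut, Anp32b, Stat2, Dhx58, Tap1, Gzmb, Ccl3, Ccl4 and Casp4. The stricter cell filter lost Adprhl2, Cltb, Dut, Stat2, Dhx58 and Dtx3l, leaving out the highest Scrublet scores Cltb, Sptbn1, Cd274 and Casp4, no filter on low counts Dhx58, Tap1 and Casp4, DESeq2 size factors Cltb and the interaction of Ccl5, and all other CD8+ Tc as comparator Sostdc1. The causes were not tested. With 2 pairs and no label that joins them, the numbers are not taken to pair the mice (correlation of same-numbered deviations 0.19 in members and −0.084 in other non-dividing CD8+ Tc). With the replicate block the share stayed at a log2 ratio of 0.54 (exact permutation p = 1) and the genotype comparison at 0. In thinned cells Havcr2fl/fl replicate 1 had no member, and with its share at the limit of 3 counts the log2 ratio of geometric means was 0.66 (exact permutation p = 0.667). For arithmetic means of the observed shares it was 1.98 (exact permutation p = 0.333). Depth limits what 11 to 32 cells per library can show.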

Other observations

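T cell receptor V genes were read sparsely in this 3′ assay. A Trbv UMI was found in 5, 11, 0 and 1 members by library and in 149, 206, 88 and 113 other non-dividing CD8+ Tc. The 17 members with one were spread over 3, 8, 0 and 1 genes by library. Trbv29 was the most frequent in Havcr2fl/fl;E8icre/+ replicate 1, in 3 of 5 members and 39 of 149 other cells. A Trav UMI was found in 6, 20, 2 and 2 members, spread over 5, 12, 2 and 2 genes. No V gene was found in more than 3 members of a library.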
